A study of Mus musculus with 8 samples.

Results

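A set of 10 genes that mark T cells was read in mouse cheek skin after injection of the itch peptide BNP, in mice that lack TBX20 in keratinocytes and in their controls. The genes are Cd3d, Cd3e, Cd3g, Cd4, Cd8a, Cd2, Cd5, Lck, Trat1 and Thy1, and they were taken by symbol from a deposited table of 18901 genes. All 10 were in the table, and all 10 passed the filter of at least 10 counts summed over the 8 mice, which left 17124 genes to test. RNA-seq was made from skin of 4 conditional knockout mice (cKO, TBX20fl/fl;K14-Cre) and 4 control mice (TBX20fl/fl, without Cre). Both groups carried the floxed Tbx20 alleles, were 7 weeks old and female, received 10 µg of BNP and were killed 5 h after behaviour had been recorded for 30 min. The K14 promoter drives Cre in keratinocytes, where exons 2 and 3 of Tbx20 are removed, and it is not a T cell promoter. No uninjected skin was part of the comparison. The series text calls the controls wild type, whereas the genotype label of each control sample gives floxed alleles.

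T cells recognise antigen through a receptor whose signal is carried into the cell by the CD3 chains. LCK, a kinase that associates with the coreceptors CD4 and CD8, phosphorylates these chains, and adaptors pass the signal on. Mouse skin holds dendritic epidermal gamma-delta T cells between its keratinocytes, and further gamma-delta and alpha-beta T cells in the dermis. Most of the epidermal cells carry CD3 and THY1 but neither CD4 nor CD8. THY1 is a surface glycoprotein that fibroblasts and neurons also make, so it is the least specific of the 10 genes. In whole skin, fewer T cells and less RNA per T cell cannot be told apart.

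The CD3 genes are neighbours, and Cd3g and Cd3d are read away from each other from gene starts 1338 bases apart. On mouse chromosome 9 (GRCm38.p6, RefSeq), Cd3g lies at chr9:44969572-44980431 on the minus strand, Cd3d at chr9:44981769-44987052 on the plus strand and Cd3e at chr9:44998735-45009663 on the minus strand. Together they span 40092 bases. Thy1 lies on the same chromosome, at chr9:44043384-44048579. The bases just before these 3 genes are shown because they include parts of the interval between Cd3g and Cd3d, and because the 3 genes differed in level although their products join 1 complex. Each sequence is from RefSeq (GRCm38.p6), runs 5′ to 3′ on the strand of the gene and stops where the annotated gene begins. Capitals mark the cores AGGAAG (ETS), CTTTGA (TCF/LEF), TGTGGT (RUNX) and CAGCTG (an E box) on either strand. The windows lie at chr9:44980432-44980681 (minus strand), chr9:44981536-44981768 (plus strand) and chr9:45009664-45009861 (minus strand).
Cd3g: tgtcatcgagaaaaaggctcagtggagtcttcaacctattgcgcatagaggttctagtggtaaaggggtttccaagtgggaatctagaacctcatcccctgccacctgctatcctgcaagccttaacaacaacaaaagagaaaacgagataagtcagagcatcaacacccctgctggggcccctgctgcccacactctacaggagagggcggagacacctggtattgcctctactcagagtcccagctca
Cd3d: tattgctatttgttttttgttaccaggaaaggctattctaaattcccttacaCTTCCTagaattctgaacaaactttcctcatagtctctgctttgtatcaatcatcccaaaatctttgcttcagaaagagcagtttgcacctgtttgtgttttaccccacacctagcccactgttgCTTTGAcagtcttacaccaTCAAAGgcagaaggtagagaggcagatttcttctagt
Cd3e: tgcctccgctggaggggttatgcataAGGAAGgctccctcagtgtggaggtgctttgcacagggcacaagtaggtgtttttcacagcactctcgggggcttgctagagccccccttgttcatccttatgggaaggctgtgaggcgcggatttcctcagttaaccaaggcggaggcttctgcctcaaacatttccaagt
Cd3d held 1 ETS core and 2 TCF/LEF cores in the stretch shown, Cd3e held 1 ETS core, and none of the letters searched occurred in that of Cd3g. RefSeq promoter windows of 300 bases, with 250 before and 50 after a start, were matched for 7 of the 10 genes, in 8 windows. The ETS core was in 5 of these 8 windows, those of Lck, Cd3d, Cd3e and Cd5, and in 35.4% of 32851 windows of all genes. A gene can have more than a single window, so the windows are not independent. The RUNX, TCF/LEF and E box cores were each in 2 of the 8, and in 16.8%, 16.0% and 16.3% of all windows. These matches are letters in a window and were not tested against any measure of binding.

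The other members lie at chr6:124864693-124888247 (Cd4), chr6:71373427-71379171 (Cd8a), chr3:101275908-101287939 (Cd2), chr19:10718107-10739026 (Cd5), chr4:129548344-129573641 (Lck) and chr16:48730774-48810547 (Trat1). The deposited table places Lck and Cd2 on scaffolds but ends them at these chromosomal positions, so RefSeq coordinates on GRCm38.p6 are given for all 10 genes. Reads of 50 bases could be confused with another gene only in small measure. In the GENCODE vM21 transcripts, at most 2.2% of the 50-base stretches of any member, those of Cd3e, also occurred in another gene. That gene is Gm48719, an antisense transcript that lies over 3.3% of the exonic bases of Cd3e, and reads of the 2 cannot be separated where the library keeps no strand.

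Total counts were 16056282 to 19880654 per mouse, so 3 counts corresponded to 0.151 to 0.187 CPM (counts scaled to a common library size), a floor that covers counting error only. Tbx20, the deleted gene, had 0 to 2 counts in cKO and 0 to 3 in control mice, so its loss was not detectable at this depth. Control mouse 2 stood apart. Across genes its Spearman correlation with its fellows had a median of 0.919, and the same median was 0.974 to 0.990 for each other mouse. Genes with transcripts of up to 1588 bases deviated there by a median of 1.13 in log2 CPM from the other mice, and genes with transcripts of 4738 bases or more by -1.23. Cd3d, Cd3e, Cd3g and Cd2 are in the shorter class, with transcripts of 964 to 1426 bases, and Trat1 is the longest member at 4007 bases. The fold changes of the members and the medians of the gene lists are therefore also given without it. The genotypes were compared by edgeR (quasi-likelihood), and after Benjamini-Hochberg adjustment over 17124 genes 0 (0%) passed an adjusted p of 0.05 (smallest 0.498). An unadjusted p-value under 0.05 was found for 1431 genes, of which 1012 (5.91% of those tested) were lower and 419 (2.45%) higher in cKO skin. DESeq2's Wald test called 10 genes, none of them a member.

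Levels of the 10 genes were compared in FPKM, which divides fragments by transcript length and library size. It is meant to set genes of different length side by side, but it was not a common scale over mice. FPKM summed to 772536 in control mouse 2 and to 521852 to 605508 in the others, with TMM factors of 0.735 and 1.007 to 1.075. FPKM means, ranges and permutation tests take in this difference, and ratios between genes take in the length deviation of that mouse. Thy1 was the most abundant, with a mean of 88.0 over the 8 mice. Cd3g followed at 19.1, then Cd2 at 6.33, Cd3d at 3.36, Cd3e at 3.26, Trat1 at 2.95, Lck at 2.14, Cd4 at 1.52, Cd5 at 1.27 and Cd8a at 0.429. Only 3 steps in this order were wider than the spread over mice. The lowest Thy1 value (66.96) was above the highest Cd3g value (36.26), and the lowest Cd3g value (12.21) was above the highest Cd2 value (9.78). Cd5, from 0.83 upwards, stayed above Cd8a, which reached 0.76. The remaining neighbours overlapped: Cd3d was above Cd3e in 2 of 8 mice, Cd3e above Trat1 in 6, Trat1 above Lck in 7, Lck above Cd4 in 6 and Cd4 above Cd5 in 4. Cd2 was above Cd3d in 8 of 8 mice, although their ranges overlapped.

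The CD3 chains were unequal in FPKM even though they are parts of the same receptor. Within a mouse, Cd3g stood 4.12 to 7.36 times above Cd3d and 3.67 to 11.7 times above Cd3e.

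**Figure D1:**
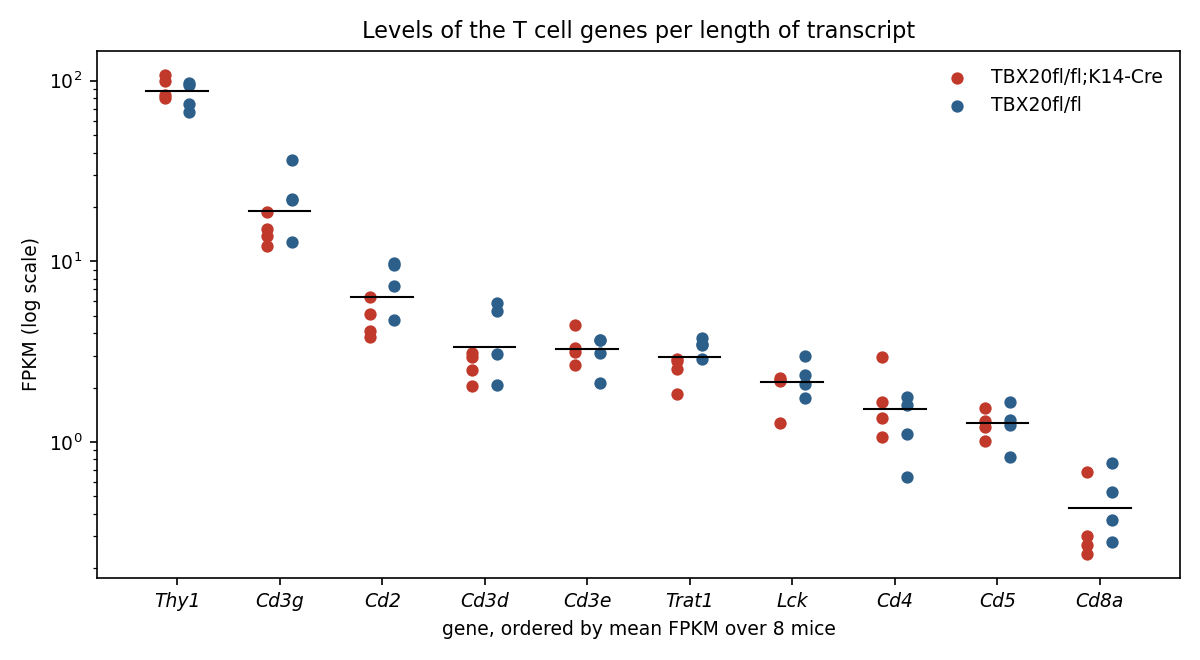
FPKM of the 10 T cell genes on a log axis, ordered by mean over 8 mice (black line), with cKO mice (TBX20fl/fl;K14-Cre) in red and control mice (TBX20fl/fl) in blue. Thy1 stands highest at a mean of 88.0, Cd3g next at 19.1, and Cd8a lowest at 0.429.

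Cd3g and Cd3d, which encode the gamma and delta chains of CD3, had lower group means in cKO skin, whereas Cd3e, which encodes the epsilon chain present in every CD3 dimer, did not. The FPKM of Cd3g was 15.08, 13.80, 12.21 and 18.64 in cKO mice 1 to 4, and 22.04, 36.26, 21.96 and 12.77 in control mice 1 to 4. Control mice 1, 2 and 3 were above every cKO mouse, and control mouse 4 lay among the cKO mice. Its mean was 14.9 ± 2.74 (SD, n = 4) against 23.3 ± 9.70 (SD, n = 4; exact permutation test, two-sided, p = 0.114). Counts gave Cd3g a log2 fold change of -0.89 with a standard error (SE) of 0.376. Its p in edgeR's test was 0.0411 before and 0.498 after adjustment. Without control mouse 2 the fold change was -0.39 and the unadjusted p in edgeR's test 0.114.

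Cd3d had an FPKM of 2.05, 3.10, 2.50 and 2.96 in the cKO mice, and 3.06, 5.84, 5.33 and 2.06 in the controls. Control mice 2 and 3 stood above all others, and controls 1 and 4 lay within the cKO range. Group means were 2.65 ± 0.476 (SD, n = 4) and 4.07 ± 1.81 (SD, n = 4; exact permutation test, p = 0.257), and the counts differed by -0.75 on the log2 scale (SE 0.364, edgeR adjusted p = 0.498). Without control mouse 2 it was -0.39. Cd3e read 2.68, 3.13, 3.33 and 4.42 in cKO mice and 3.65, 3.11, 3.66 and 2.11 in control mice. The groups were interleaved, and both the highest value (cKO mouse 4) and the lowest (control mouse 4) went against a lower level in cKO skin. For Cd3e the log2 fold change was -0.061 (SE 0.258, edgeR adjusted p = 0.900), and 0.064 without control mouse 2.

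Of the genes that act next to the receptor, Trat1 came closest to separate groups. TRAT1 is an adaptor that binds and stabilises the receptor at the surface. Its FPKM was 2.52, 1.85, 2.82 and 2.88 in cKO mice and 3.44, 3.77, 3.48 and 2.86 in control mice. The first 3 cKO mice lay below every control, and cKO mouse 4 just exceeded control mouse 4. The means were 2.52 ± 0.472 (SD, n = 4) and 3.39 ± 0.381 (SD, n = 4; exact permutation test, p = 0.0571, adjusted over 15969 genes 0.398). On counts Trat1 differed by -0.53 in log2 (SE 0.214), with an edgeR p of 0.0334 before and 0.498 after adjustment. Leaving out control mouse 2 gave -0.36 and an unadjusted p of 0.0631. In TMM-scaled CPM in place of FPKM, the groups of Trat1 did not overlap (exact permutation test, p = 0.0286), as was so for 6.92% of 17124 genes. Lck, the kinase that starts the signal, read 1.28, 2.25, 2.19 and 2.17 in cKO mice and 2.10, 2.35, 2.98 and 1.76 in control mice. Only cKO mouse 1 was below all controls. Lck had a log2 fold change of -0.42 (SE 0.269, edgeR adjusted p = 0.508), and -0.27 without cKO mouse 1 or without control mouse 2.

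The coreceptors Cd4 and Cd8a were, with Cd5, the 3 least abundant members. Cd4 marks helper and regulatory T cells and is also made by some macrophages. Its FPKM was 1.06, 1.67, 2.94 and 1.35 in cKO mice and 1.11, 0.64, 1.60 and 1.77 in control mice. The highest mouse was a cKO mouse and the lowest a control, and the other values were mixed. On counts Cd4 differed by 0.38 in log2 (SE 0.369, edgeR adjusted p = 0.585). That value rested on single mice, since it was 0.008 without cKO mouse 3 and 0.20 without control mouse 2. Cd8a, found on cytotoxic T cells and on some dendritic cells, read 0.24, 0.27, 0.68 and 0.30 in cKO mice and 0.53, 0.28, 0.76 and 0.37 in control mice. It rested on 14 to 44 counts per mouse, the fewest of the 10 genes. In each group mouse 3 was highest, and counts differed by -0.54 in log2 (SE 0.408, edgeR adjusted p = 0.525). Cd8a gave -1.01 without cKO mouse 3 (unadjusted p = 0.0211 in edgeR's test), -0.27 without control mouse 3 and -0.64 without control mouse 2. Between mice of the same number, it was lower in the cKO mouse in 4 of 4 pairs.

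Of the surface receptors, Cd2 was the member with the most negative fold change. CD2 is an adhesion receptor of T and NK cells. Its FPKM was 3.79, 4.11, 6.31 and 5.10 in cKO mice and 4.75, 9.78, 9.49 and 7.34 in control mice. Control mice 2, 3 and 4 were above every cKO mouse, and control mouse 1 lay between cKO mice 2 and 4. The means were 4.83 ± 1.13 (SD, n = 4) and 7.84 ± 2.33 (SD, n = 4; exact permutation test, p = 0.0857). On counts Cd2 differed by -0.91 in log2 (SE 0.319), with an edgeR p of 0.0184 before and 0.498 after adjustment. Leaving out control mouse 2 gave -0.62 and an unadjusted p of 0.0433. Set against the control of the same number, the cKO mouse was lower in 4 of 4 pairs for Cd2 and Cd8a. It was lower in 3 of 4 for Cd3d, Cd3g, Lck and Trat1, in 2 for Cd3e, Cd4 and Cd5, and in 1 for Thy1. The share of all genes lower in every pair was not counted. For Cd2 the fit with the replicate number as a block gave -0.83 with an unadjusted p of 0.0207 in edgeR's test.

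Cd5, an inhibitory receptor of T cells and of a subset of B cells, and Thy1 gave fold changes near 0. Cd5 read 1.31, 1.55, 1.01 and 1.21 in cKO mice and 1.24, 0.83, 1.67 and 1.32 in control mice, so that controls held both extremes (log2 fold change -0.14, SE 0.228, edgeR adjusted p = 0.735; -0.20 without control mouse 2). Thy1 had an FPKM of 80.62, 99.61, 83.49 and 107.86 in cKO mice and 73.95, 66.96, 94.14 and 97.12 in control mice. The groups overlapped, and Thy1 rested on 1813 to 3615 counts per mouse, the most of the 10. Its log2 fold change of 0.0033 had the smallest SE of the members, 0.156 (edgeR adjusted p = 0.993), and was 0.025 without control mouse 2.

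**Figure D2:**
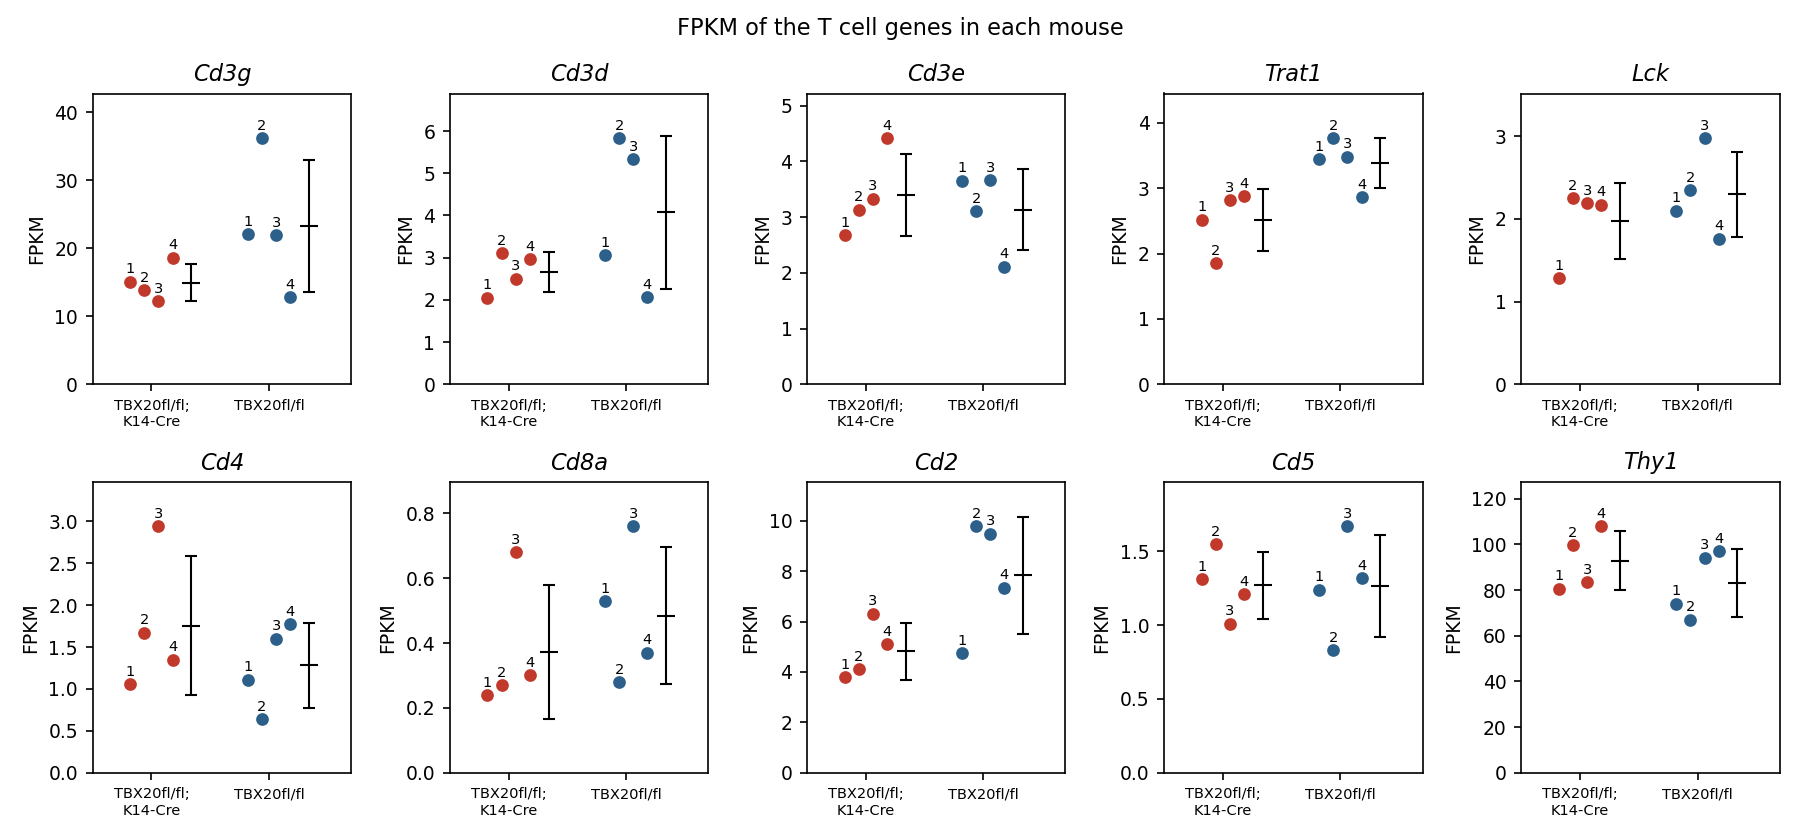
FPKM of each T cell gene by mouse, with the mouse number above each point, cKO mice (TBX20fl/fl;K14-Cre) in red, control mice (TBX20fl/fl) in blue, and the mean ± SD of each group of 4 in black. No gene separates the groups; Cd2 and Cd3g have 3 of 4 control mice above every cKO mouse, and Trat1 has 3 of 4 cKO mice below every control.

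No member passed the adjusted threshold in edgeR's test. Their adjusted p-values ran from 0.498 to 0.993. At an unadjusted p under 0.05, 3 of the 10 (Cd2, Trat1 and Cd3g) were lower and 0 higher in cKO skin, beside 5.91% and 2.45% of all genes tested. Of the 10 fold changes 8 were below 0, with a median of -0.48, against 47.5% of all genes and a median of 0.026. In FPKM, 0 of the 10 genes had groups that did not overlap, against 7.37% of 15969 genes. The smallest p that 4 mice against 4 allow in the exact permutation test was 0.0286, and no member reached it.

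The direction of the calls over all genes depended on the scale: of the 1177 genes with separate FPKM groups 307 were lower, and in limma on log2(FPKM + 1) 541 genes were lower and 505 higher at an unadjusted p under 0.05. On that scale 6 of the 10 members were below 0, with a median of -0.13, against 34.4% of all genes and a median of 0.12. There, 1 member (Cd2, log2 difference -0.58, adjusted p = 0.457 in limma's test) had an unadjusted p under 0.05, beside 3.39% of 15969 genes lower. With 0.1 added in place of 1, the median of the members was -0.27, against 0.18 of all genes. Cd8a then moved from -0.11 to -0.33.

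With the replicate number as a block, since same-numbered mice deviated together, only Cd2 (-0.83) kept an unadjusted p under 0.05 in edgeR's test, beside 6.54% of all genes. Without control mouse 2 it was again Cd2 alone, beside 4.5% of genes. When the length trend was taken out of each library, Trat1 alone was left (log2 fold change -0.80, unadjusted p = 0.0236 in edgeR's test), beside 5.19% of genes. In that fit the 3 short genes Cd2, Cd3g and Cd3d gave -0.45, -0.33 and -0.24, and Cd3e gave 0.23. Trat1 in control mouse 2 was then at a log2 CPM of 4.82, and in the other mice at 2.84 to 3.81. With the length trend removed and the block kept, the gene changed: Trat1 gave -0.70 and an unadjusted p of 0.0647, and Cd2 -0.46 and an unadjusted p of 0.0233, beside 6.49% of genes lower. With the trend removed and control mouse 2 left out, a fit chosen after the data were seen, Trat1 gave -0.41 (unadjusted p = 0.0336 in edgeR's test), beside 3.75% of genes lower. The median of the 10 genes was -0.26 with the trend removed, -0.31 without control mouse 2 and -0.21 with both.

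**Figure D3:**
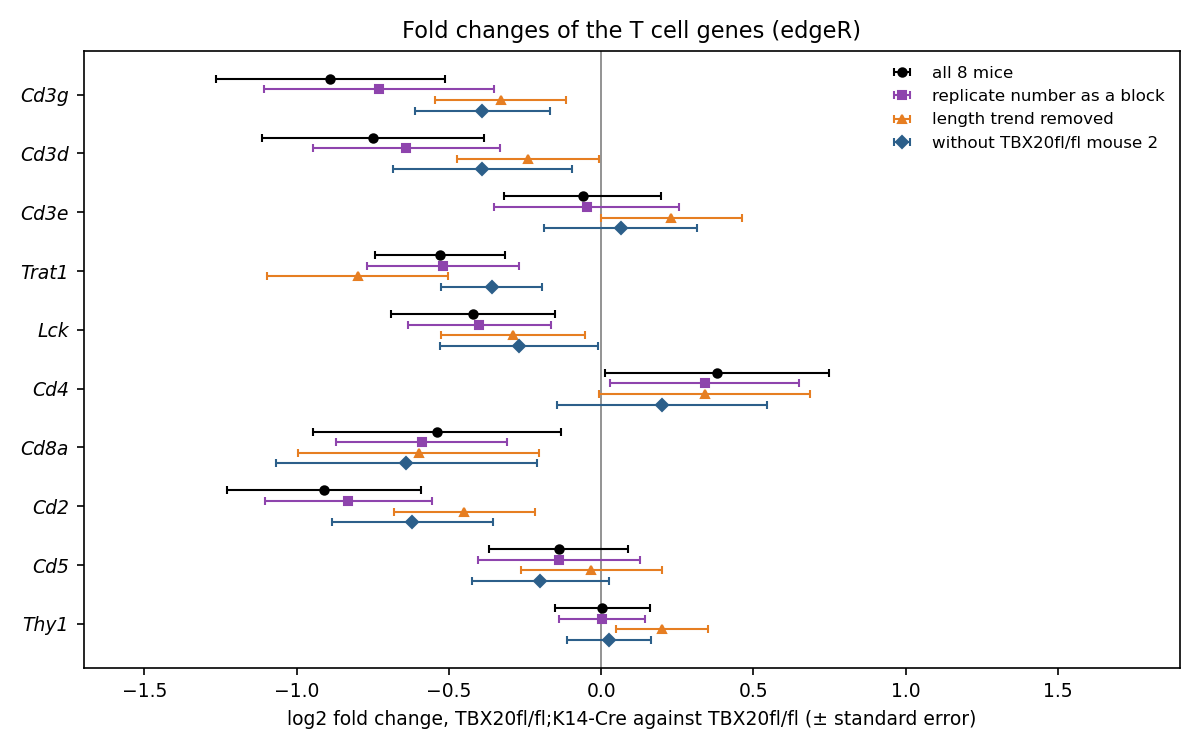
Log2 fold change of each T cell gene, TBX20fl/fl;K14-Cre against TBX20fl/fl, with its standard error, from 4 edgeR fits: all 8 mice, the replicate number as a block, the transcript length trend removed, and control mouse 2 left out. Cd3g moves from -0.89 to -0.33 and Cd2 from -0.91 to -0.45 when the length trend is removed, while Trat1 moves from -0.53 to -0.80.

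Ratios within a mouse set the members against each other and against all leukocytes. Ptprc, which encodes the CD45 phosphatase of all white blood cells, served as the denominator. Its transcript of 4845 bases is in the longer class, which read low in control mouse 2. The CD3 chains are in the shorter class, which read high there. Ptprc gave a log2 fold change of -0.23, and -0.52 with the length trend removed (unadjusted p = 0.0229 in edgeR's test). The part of transcript length in these ratios was not tested. The summed FPKM of the CD3 chains was 0.963, 0.877, 0.612 and 0.694 times that of Ptprc in cKO mice 1 to 4, and 0.919, 2.54, 0.847 and 0.531 times in control mice 1 to 4. Control mouse 2 was far above the others, which overlapped. The mean log2 difference was -0.39 (exact permutation test, two-sided, p = 0.600), and 0.055 without that mouse. Against the summed pan-leukocyte list of 10 genes in place of Ptprc it was 0.028 (exact permutation test, p = 0.914).

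Among the 45 ratios that 10 genes allow, 3 had FPKM groups that did not overlap, and 0 did once the length trend was removed. They were Cd3e to Cd3g, Cd3e to Trat1 and Cd4 to Cd2, each higher in cKO mice. Cd3g stood 3.67 to 5.63 times above Cd3e in cKO mice and 6.0 to 11.7 times in control mice. These ratios were chosen after their values were seen and were not tested. Cd3g and Cd3d kept a like ratio in both groups, 4.45 to 7.36 and 4.12 to 7.20. Cd4 was 4.42, 6.19, 4.32 and 4.50 times as abundant as Cd8a in cKO mice, and 2.09, 2.29, 2.11 and 4.78 times in control mice. Control mice 1, 2 and 3 were below every cKO mouse and control mouse 4 was among them, an observation also made after the values were seen.

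**Figure D4:**
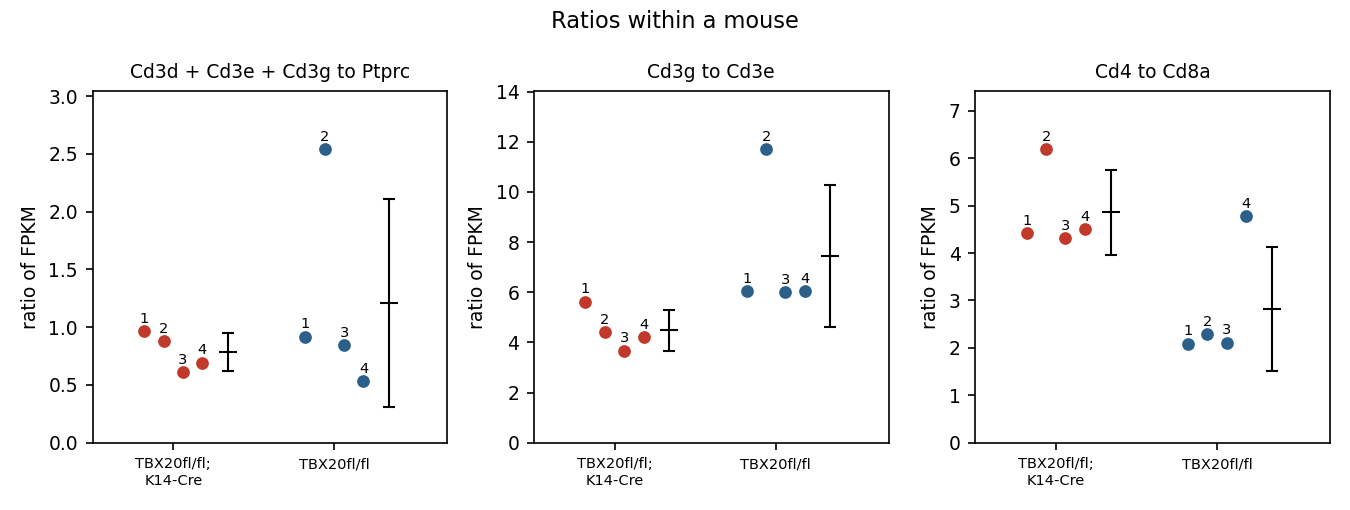
FPKM ratios within each numbered mouse, cKO mice (TBX20fl/fl;K14-Cre) in red and control mice (TBX20fl/fl) in blue, with mean ± SD in black: the summed CD3 chains to Ptprc, Cd3g to Cd3e, and Cd4 to Cd8a. Control mouse 2 is highest in the first panel at 2.54 and in the second at 11.7, and 3 of 4 control mice lie below every cKO mouse in the third.

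Other genes that bear on T cells were read from lists, and none passed the adjusted threshold in edgeR's test (smallest adjusted p = 0.498). Not all of them are made by T cells alone, so in whole skin their values are not a measure of T cells. T cell receptor constant regions were not analysed here. Of 32 receptor signalling genes, 3 were lower and 1 higher at an unadjusted p under 0.05, with a median log2 fold change of -0.17 (-0.14 without control mouse 2). Over all genes tested, 5.91% were lower and 2.45% higher, with a median of 0.026. The 2 most abundant were Fyn, a kinase related to Lck (0.11, and 0.029 without control mouse 2), and Lcp2, the SLP-76 adaptor (-0.44). Lef1, a transcription factor of T cells and of hair follicles, gave 2.24 (SE 0.652), at an FPKM of 0.51 to 4.24 in cKO and 0.22 to 0.52 in control mice. Cd247, which encodes the zeta chain that completes the receptor, gave -0.21 (-0.11 without control mouse 2) and was added here after its values were seen.

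In the lists for T cell subsets, lower and higher again count genes at an unadjusted p under 0.05, beside the same 5.91% and 2.45% of all genes. The genes named in each list are the 2 most abundant and the one with the smallest p, so a named gene need not be among those counted. Of 16 cytotoxic T and NK cell genes 8 were lower and 0 higher, with a median of -0.84. Without control mouse 2, 6 were lower and the median was -0.65, beside 4.5% of all genes lower. Klrd1, the CD94 receptor chain, had an FPKM of 5.20 to 7.32 in cKO and 7.83 to 18.20 in control mice (log2 fold change -1.14), and its partner Klrc1 gave -1.32. Gzma, a granzyme, gave -1.24. These 3 gave -0.67, -0.88 and -0.82 without control mouse 2. Of 20 genes of epidermal gamma-delta and resident T cells 6 were lower and 1 higher (median -0.54), and without control mouse 2, 5 were lower (median -0.28). Rgs1, a regulator of G protein signals, had an FPKM of 2.76 to 4.20 in cKO mice and 5.39 to 11.96 in controls (log2 fold change -1.42), while Maf, a transcription factor, gave 0.19 and Fgf7, a growth factor for keratinocytes that fibroblasts also make, gave -0.45. Rgs1, Maf and Fgf7 gave -0.95, -0.0019 and -0.14 without control mouse 2.

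Among 10 tested regulatory T cell genes 2 were lower (median -0.43). Il10, an anti-inflammatory cytokine, gave -1.34, and Tnfrsf18 (GITR) and Lrrc32 (GARP) gave -0.54 and 0.26. The 3 gave -0.89, -0.15 and 0.068 without control mouse 2. Foxp3, the defining factor of these cells, gave -0.31 (-0.48 without control mouse 2) and was added here after its values were seen. Its FPKM was 0.22 to 0.35 in cKO and 0.13 to 0.47 in control mice, while Tnfrsf18 had 12.69 to 19.18 and 14.71 to 27.74. Of 12 tested helper T cell regulators and cytokines 2 were lower and 1 higher (median -0.58). The higher gene was Gata3 (0.41), which also acts in keratinocytes, and the lower genes were Stat4 (-0.66) and Ifng (-1.58), the latter named after its value was seen. Il1rl1, the receptor of IL-33, gave -0.29 and was not among them. Of 13 migration receptors 2 were lower (median 0.013), and the selectin ligand Selplg gave -0.29. Of 10 growth and survival genes 3 were lower (median -0.48), with -1.06 for the cytokine Il15, -0.69 for the receptor Il7r and 0.030 for Il4ra. Without control mouse 2 the medians were -0.36 for the regulatory, -0.60 for the helper, -0.095 for the migration and -0.28 for the growth and survival list, with 1, 0, 2 and 3 genes lower. In that fit Il15 gave -0.62 and Il4ra -0.15. With the length trend removed, when 5.19% of all genes were lower, the counts of lower genes were 5 for receptor signalling, 6 for the cytotoxic and NK list, 5 for the resident, 3 for the regulatory, 2 for the helper, 2 for the migration and 3 for the growth and survival list. The medians, in that order, were -0.14, -0.65, -0.35, -0.39, -0.57, -0.077 and -0.27.

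Markers of other cells were counted at the same threshold and are to be read against the same shares of all genes, 5.91% lower and 2.45% higher. Pan-leukocyte genes were lower in 5 of 10 (median -0.36), with Cd52 at -1.32 and Arhgdib at -0.56, and their summed FPKM was 389 to 614 in cKO and 560 to 830 in control mice. Neutrophil genes were lower in 5 of 10 (median -0.94), with S100a8 at -2.10 and S100a9 at -2.09, and a summed FPKM of 110 to 299 and 292 to 975. Macrophage and dendritic cell genes were lower in 2 of 10 (median -0.082; C1qa -0.33, H2-Ab1 -0.40, Cd14 -1.20), and B cell genes in 1 of 10 (median -0.19; Blnk 0.0045, Cd79b -0.78, Fcrla -1.05). Without control mouse 2 the genes lower numbered 4, 5, 1 and 1 in these 4 lists, with medians of -0.31, -0.80, -0.11 and -0.20, and Cd52 gave -0.80, Arhgdib -0.30, S100a8 -1.67, S100a9 -1.59, C1qa -0.20 and H2-Ab1 -0.22. In that fit 4.5% of all genes were lower. With the length trend removed, beside 5.19% of all genes, the genes lower numbered 6, 5, 1 and 0 in the same order. Their part in the values of the T cell genes was not tested.

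Tissue cells were read in the same way. Fibroblast genes, which bear on Thy1, were higher in 2 of 10, Col1a1 at 1.10 and Col1a2 at 0.75, the latter named after its value was seen. Of the other fibroblast genes Col3a1 gave 0.44 and Dcn -0.64, and keratinocyte genes were lower or higher in 0 of 10 (Krt14 -0.30, Krt10 0.055, Trp63 0.38). Skeletal muscle genes were lower in 1 of 10 (Acta1 0.031, Mylpf -0.78, Pvalb -0.76), and neural genes that go with Thy1 in 1 of 9 (Stmn2 -0.34, Gap43 -0.50, Nefh -1.16). With control mouse 2 left out, Stmn2 gave 0.12, Gap43 -0.05 and Nefh -1.25, and Mylpf, Pvalb and Dcn gave -0.30, -0.34 and -0.24. The list medians were then 0.056 for fibroblasts, 0.046 for keratinocytes, -0.0093 for muscle and -0.15 for the neural list, against 0.18, 0.074, -0.037 and -0.41 with all mice. With the length trend removed the medians were 0.02, 0.15, 0.062 and -0.099. In that fit Col1a1 gave 0.82 and Mylpf -0.11. Col1a2 gave 0.40 and Pvalb -0.21, and both lost an unadjusted p under 0.05 (0.193 and 0.176 in edgeR's test). The summed FPKM was 4480.3 to 6325.1 in cKO and 4357.8 to 6569.6 in control mice for fibroblasts, 5044.1 to 6160.6 and 5060.4 to 6387.6 for keratinocytes, 11040.4 to 18070.7 and 14657.1 to 19858.1 for muscle, and 15.1 to 21.0 and 13.2 to 26.4 for the neural list. Of the 10 neural genes 9 were read, the other not being analysed here, and every gene read in these lists had counts in at least 1 mouse.

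**Figure D5:**
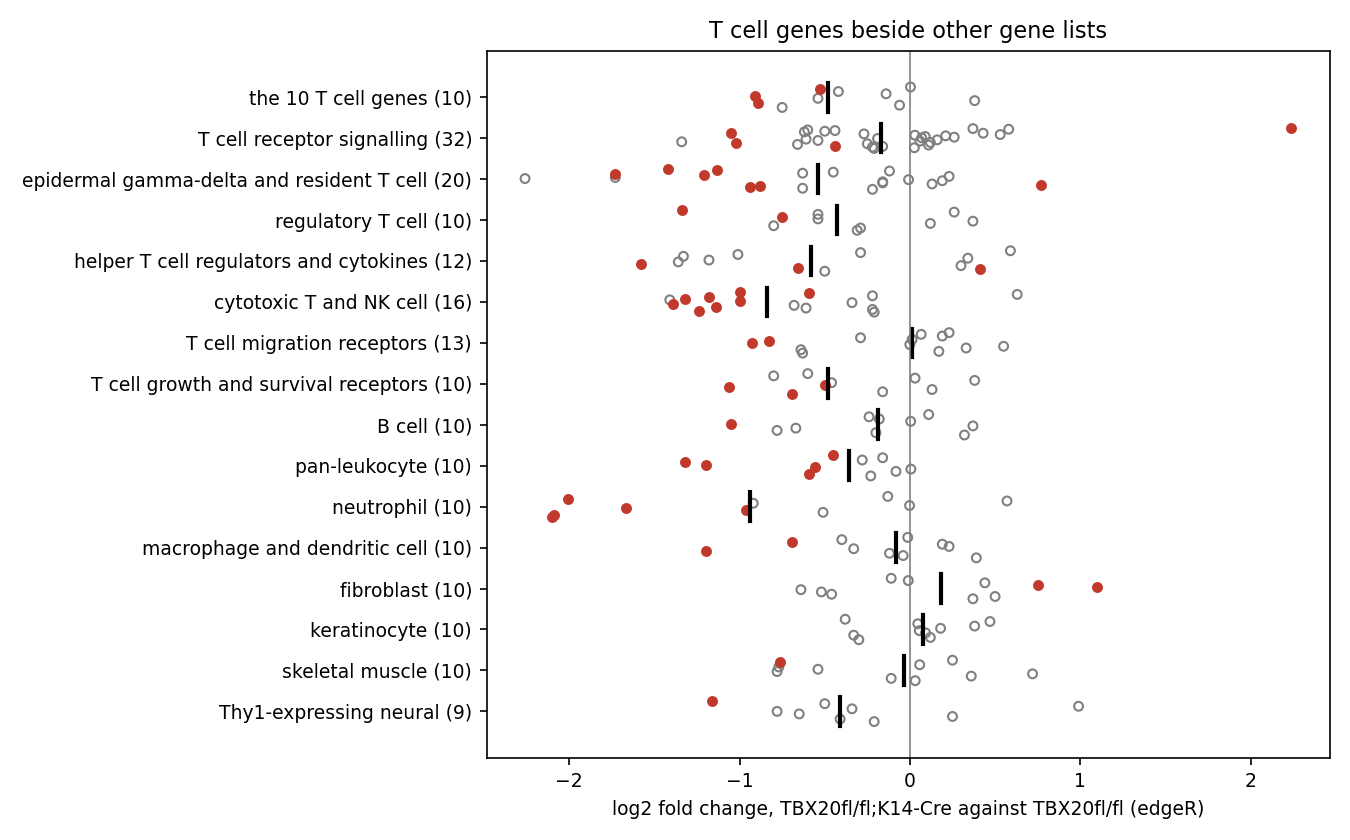
Log2 fold change (TBX20fl/fl;K14-Cre against TBX20fl/fl, edgeR) of the 10 T cell genes and of each list, 1 point per gene, red where the unadjusted p was under 0.05, with the list median as a black bar and the number of genes tested in parentheses. The 10 T cell genes have a median of -0.48, the cytotoxic T and NK cell list -0.84 and the neutrophil list -0.94.

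The genes most like the CD3 chains over the 8 mice were found among 13290 genes whose mean count was 50 or more. The measure of likeness was Pearson's r of log2 CPM with the mean of Cd3d, Cd3e and Cd3g, given as a description, since the 8 points share genotype and library effects. It was highest for Cyp2j9, a cytochrome P450 (0.996), Cd7, a receptor of T and NK cells (0.984), Btg1 (0.980), Irgm1, an interferon-induced GTPase (0.978), and Tor1aip2 (0.976). Among the members themselves r was 0.845 for Lck, 0.783 for Trat1, 0.722 for Cd2, 0.281 for Cd8a, 0.202 for Thy1, 0.069 for Cd5 and -0.612 for Cd4. On a scale added after the data were seen, with the length trend removed, Lck had 0.669, Cd8a 0.413, Trat1 0.383 and Cd2 0.169. Cd5 had -0.066, Thy1 -0.172 and Cd4 -0.299 on that scale. The 5 closest genes were then Adora2b, Apol10b, Slamf8, Ccl24 and Cyp2j9 (0.937 to 0.963).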

How the data were processed

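Each library came from the BNP-injected cheek of 1 mouse, 4 of them TBX20fl/fl;K14-Cre and 4 TBX20fl/fl. The authors read 50 bases from 1 end of each fragment, filtered with SOAPnuke and aligned with HISAT. The deposited estimated counts (expected counts) carry no normalization. Of the values above 0, 69.0% were fractional, and all were rounded. The program that made them is not given in the sources used here. The authors also deposited FPKM values, TPM values and a normalized signal (counts divided by a size factor); the last 2 were not used. Columns of fold changes, p-values and q-values from the authors' own comparisons were not used.

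Counts of genes with at least 10 over 8 mice were scaled by TMM and compared by edgeR 4.0.16 (R 4.3.3; quasi-likelihood test), with Benjamini-Hochberg adjustment over 17124 genes. Standard errors are the log2 fold change over the root of the F statistic. FPKM was compared by two-sided exact permutation over 70 assignments, adjusted over 15969 genes with a mean of at least 0.1, and by limma 3.58.1 on log2(FPKM + 1). DESeq2 1.42.0, DESeq2 size factors, no count filter, the replicate block, a length trend as an offset and leaving out each mouse were alternatives. Transcript lengths were derived from counts and FPKM. Scripts were tested on simulated data. Tables were made with Python 3.11.15.

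The replicate numbers come from the sample titles. Across genes, deviations from the group means correlated at 0.405, 0.319, 0.331 and 0.16 between the mice numbered 1, 2, 3 and 4. The mean of -0.0887 between other pairs follows largely from taking deviations from group means, so it adds no separate evidence. No pairing is stated in the labels. The numbers were taken to pair the mice from these same data, so the block fits and pair counts are alternatives only. Nothing in the labels says that animals were pooled.

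The members and gene lists were chosen with earlier results of these data known. Named genes are the members, Tbx20, from each list the 2 genes with the highest mean FPKM and the gene with the smallest edgeR p-value, and the 5 genes most correlated with the CD3 chains. One gene that this rule names is not reported here. Motifs were searched on both strands.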

Additional observations from a re-analysis of the deposited data

Results flagged for a closer look

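Dixon's test for a mouse far from the other 3 of its group was applied to the FPKM of each T cell gene and to the ratio of the CD3 chains to Ptprc, in 22 groups of 4. It marked 2 values, and chance alone marks about 1 in 20 groups (1.1 of 22). Cd8a was at an FPKM of 0.68 in cKO mouse 3, with the other cKO mice at 0.24 to 0.30. Lck was at 1.28 in cKO mouse 1, with the other cKO mice at 2.17 to 2.25.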

How the results depend on the processing

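Under all 15 alternative edgeR and DESeq2 fits, including a combined one added after the data were seen, Cd3d, Cd3g, Cd8a, Cd2, Cd5, Lck, Trat1 and Cd4 kept the sign of their fold changes. Genes past the adjusted threshold numbered 0 in each fit except DESeq2's Wald test, which gave 10. Members with an unadjusted p under 0.05, 3 with all mice, numbered 1 with the replicate block (Cd2), 1 with the length trend removed (Trat1), 1 with both (Cd2, beside 6.49% of all genes), 1 with the trend removed and control mouse 2 left out (Trat1, 3.75%), and 1 to 4 when each mouse was left out in turn, with 1 without cKO mouse 1 or 2 or control mouse 2 or 3. Of all genes, 10.9% and 9.89% were lower in the fits without control mouse 1 or 4, and 3.15% to 4.5% in the other leave-one-out fits. Cd3e reversed to 0.23 with the length trend removed, 0.24 with the replicate block added to it, 0.18 with the trend removed and control mouse 2 left out, and to 0.028 and 0.064 without cKO mouse 1 or control mouse 2 (range when each mouse was left out, -0.24 to 0.064). Thy1 reversed to -0.014 with DESeq2 size factors, -0.013 with DESeq2's Wald test, and was below 0 without cKO mouse 2 or 4 or control mouse 1 (range -0.081 to 0.054). On the FPKM scale Cd3e reversed to -0.067 in TMM-scaled CPM and below 0 without cKO or control mouse 4 (range -0.040 to 0.21), and Cd5 to -0.14 in TMM-scaled CPM (range -0.15 to 0.17 when each mouse was left out). Members with separate groups, 0 in FPKM, numbered 1 in TMM-scaled CPM (Trat1, beside 6.92% of all genes) and 0 to 2 when each mouse was left out, with 1 without cKO mouse 4 (10.4% of all genes) or control mouse 1 (16%) and 2 without control mouse 4 (16.5%), and 8.23% to 16.3% in the sets with 0. The CD3 to Ptprc difference ran from -0.70 to 0.055 when each mouse was left out, and was 0.028 with the pan-leukocyte list. The cause of these shifts was not tested. Cd8a rested on the fewest counts, 14 to 44, and whether depth set its error was not tested.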
